A study of Mus musculus with 6 samples.

Results

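The 35 genes described here encode enzymes of fatty acid oxidation, the carriers and activating enzymes that feed it, the peroxisome proliferator-activated receptors (PPARs) and some of their best-known targets. They were chosen by gene symbol, and all 35 were found among the 20594 genes of the deposited expression table. These genes and the further lists below were chosen with earlier results of these data known. Their shares beside those of all genes are therefore description. The study measured RNA of whole colon tissue from 3-week-old C57BL/6J mouse offspring in 6 libraries. Control libraries (3) are from pups whose dams received 0% dextran sulfate sodium (DSS), a polymer that injures the colon lining and is used to cause colitis. Maternal DSS libraries (3) are from pups whose dams received 1.5% DSS between embryonic days 13 and 19 by the sample labels, for 5 days in the second trimester by the series text. The offspring carried no labelled genetic change and received no labelled treatment of their own. The sample titles speak of 3 offspring without saying whether these are the 3 animals of a group or a pool in each library, and they name no dam, litter or sex. The p-values therefore measure the spread between these libraries, and an effect of a shared dam cannot be told apart from that of DSS.

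Fatty acids are burned in steps. They are taken up and coupled to coenzyme A, carried across the inner mitochondrial membrane as carnitine esters, and shortened in a repeating spiral of oxidation, hydration, a further oxidation and thiolysis, while peroxisomes run a parallel spiral on very long and branched chains. PPARs are nuclear receptors that bind fatty acids, pair with retinoid X receptors and raise transcription of many genes of this pathway. Colon epithelium draws much of its energy from oxidising butyrate made by bacteria.

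Values of 3 libraries are given in the order of replicates 1, 2 and 3. All values are FPKM, which are fragment counts scaled by transcript length and library total, so levels can be set beside each other between genes. The mean level over the 6 libraries ran from 237 FPKM for Ucp2, an inner-membrane carrier, and 124 for the dehydrogenase gene Hadh down to 3.54 for Acot1 and 2.96 for Acot2. The 18 mitochondrial steps together summed to 1080 to 1108 FPKM in controls and to 1185 to 1273 in maternal DSS libraries. The 4 peroxisomal steps summed to 74.9 to 76.7 and 76.2 to 82.7. These sums are of values as deposited and were not scaled to equal library totals. The FPKM total over all genes was higher in maternal DSS 2 and 3 than in any control, and within the control range in maternal DSS 1. The sums therefore also carry the differences in these totals. As a share of the library total, the mitochondrial sum lay within the control range in maternal DSS 2 and 3. It lay above that range in maternal DSS 1. The peroxisomal share lay below the controls in maternal DSS 2 and 3 and above them in maternal DSS 1. The separation of the mitochondrial sums as deposited thus did not hold on a common total. No test was run on these shares. As in any bulk tissue, less RNA per cell and fewer cells of a type cannot be told apart.

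Most of the 35 genes had slightly more RNA in colon of offspring of DSS-treated dams, and none passed the adjusted threshold. The largest differences were in Angptl4, Slc25a20, Acot1, Acaa2 and Acot2. Of the 35, 33 had a positive log2 fold change, compared with 40.3% of all 13594 genes tested, with a median of 0.12 against -0.04 for all genes. A positive log2 fold change means more RNA after maternal DSS. It was computed from log2(FPKM + 1), and the added 1 shrinks differences of low genes. In limma with Benjamini-Hochberg adjustment over all genes, 0 of the 35 passed 0.05 (the lowest adjusted p was 0.62), and 0 of 13594 genes did (0%). Without adjustment 10 of the 35 had p under 0.05, all higher, against 7.83% of all genes in either direction, 2.42% higher and 5.41% lower. In 15 of the 35 every maternal DSS library lay above every control, against 4.92% of all genes, and in 0 of the 35 every maternal DSS library lay below, against 9.14%. After TPM scaling 6 of the 35 lay wholly above, against 1.49% of all genes, and after median-ratio scaling 17, against 6.82%. The 6 were Acaa2, Acot1, Angptl4, Decr1, Eci1 and Slc25a20, so wherever other genes are described as not overlapping, this holds for the values as deposited. Slc25a20 in turn overlapped after median-ratio scaling.

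The unadjusted count rests on the spread of few libraries. It was 10 with all 6 libraries, against 2.42% of all genes called higher. It was 5 when control 1 was left out (1.54% of all genes), 5 when control 2 was (1.18%), and 4 when maternal DSS 3 was (1.53%). Leaving out maternal DSS 1 gave 9 higher and 2 lower, and over all genes 1048 higher (7.83%) and 2301 lower. Acaa2, Acot1, Angptl4 and Slc25a20 were among the genes with an unadjusted p under 0.05 in all 6 of these leave-one-out fits. Scaling each library to the same FPKM sum, as TPM does, moved the median of all genes from -0.04 to -0.13. On that scale 19 of the 35 had a positive fold change, against 19.9% of all genes. The same 4 genes had an unadjusted p under 0.05, against 0.704% of all genes called higher. These shares are the background wherever counts after TPM scaling are given. Set against the median of all genes, the median of the 35 was 0.16 higher as deposited, 0.14 after TPM scaling and 0.17 after median-ratio scaling. Of all genes with an unadjusted p under 0.05, 30.9% were higher as deposited, 8.61% after TPM scaling and 48.3% after median-ratio scaling.

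**Figure D1:**
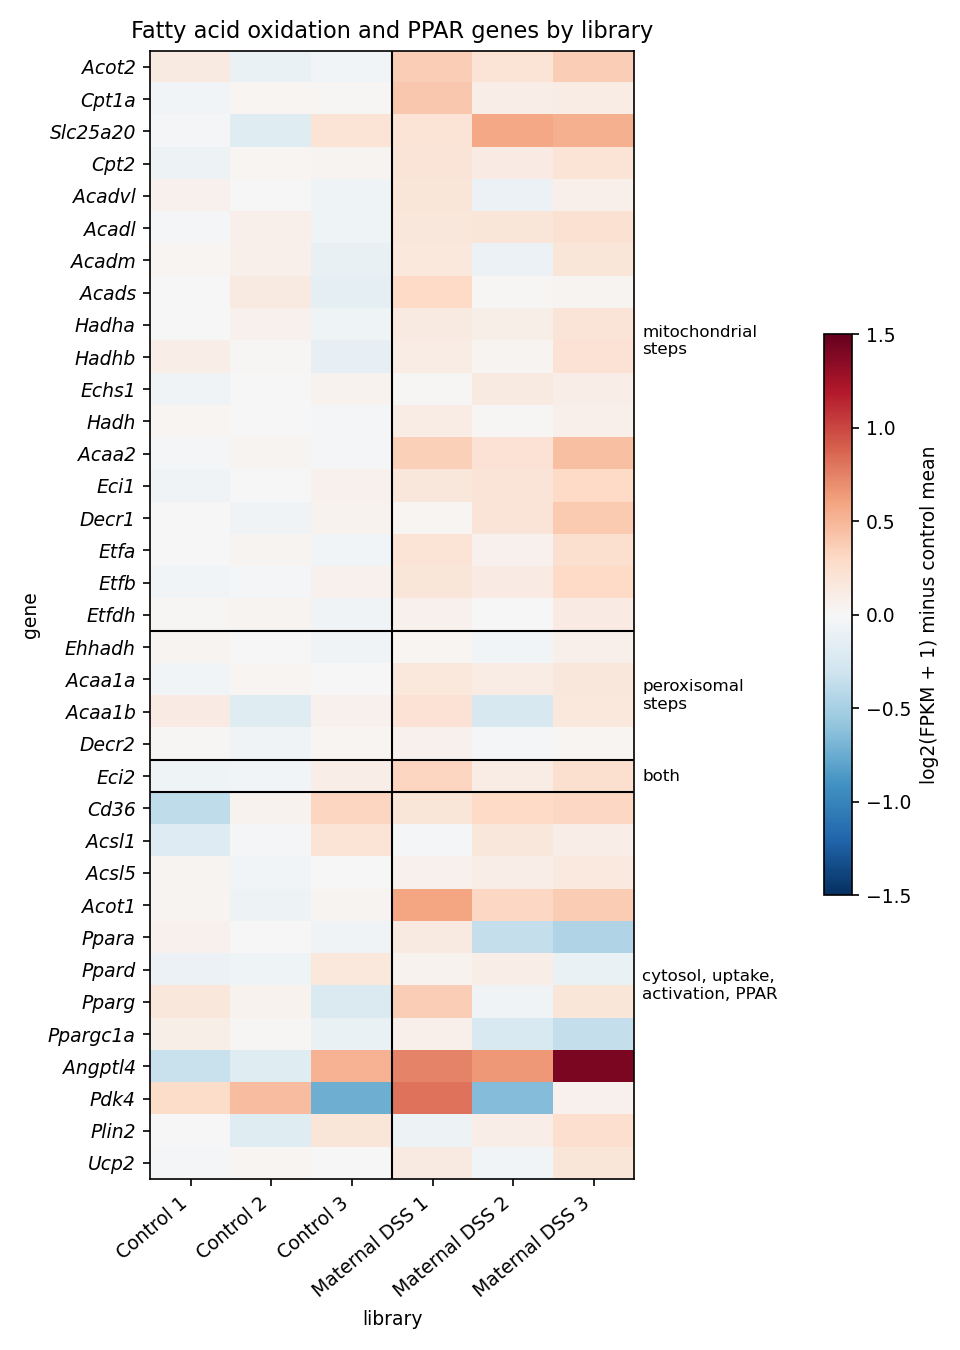
Heat map of log2(FPKM + 1) minus the control mean for the 35 genes (rows, grouped by compartment) in the 6 libraries (columns), red for above and blue for below the control mean. In values as deposited, the maternal DSS columns are mostly red in the mitochondrial block. Ppara and Ppargc1a are blue in maternal DSS 2 and 3, and Pdk4 varies within both groups.

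Uptake and activation showed small differences. Cd36, a fatty acid translocase of the cell surface, had 6.69, 9.36 and 11.5 FPKM across the control libraries, compared with 10.4, 11.3 and 11.4 after maternal DSS. Control 3 was as high as any maternal DSS library, and the log2 fold change of 0.27 (SE 0.17) had an unadjusted p of 0.15 in limma. It was 0.077 when control 1 was left out and 0.43 when control 3 was. The acyl-CoA synthetases couple fatty acids to coenzyme A. Acsl5 had 34.4, 32.4 and 33.6 FPKM across the control libraries, compared with 34.9, 36 and 37.2 after maternal DSS. Its groups did not overlap, by a margin smaller than the spread within either group (log2 fold change 0.10 ± 0.07 SE, limma adjusted p = 0.63). Acsl1 lay between 8.62 and 11.7 FPKM in controls and between 9.72 and 11.4 in maternal DSS libraries.

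The acyl-CoA thioesterases release free fatty acid from coenzyme A and are induced by PPAR-alpha ligands in mouse liver. Acot1, the cytosolic form, had 2.96, 2.65 and 2.99 FPKM across the control libraries, compared with 4.82, 3.79 and 4.04 after maternal DSS. Acot2, the mitochondrial form, had 2.88, 2.29 and 2.43 FPKM against 3.54, 3.06 and 3.55. Neither gene had overlapping groups. The log2 fold changes were 0.43 (SE 0.10) for Acot1 and 0.31 (SE 0.10) for Acot2, with an adjusted p = 0.62 for both in limma. Both genes lie on chromosome 12 of GRCm38.p6, Acot2 from 83987861 to 83993877 and Acot1 from 84009502 to 84017670. Their reading frames were 95.5% identical over 1239 aligned bases. Of the 50-base windows of the Acot1 transcript 33.6% also occur in a transcript of another gene, most often Acot2, and 27.7% of those of Acot2. Reads in these windows cannot be assigned to a single gene, so the 2 values are uncertain and are not independent.

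The stretches before the start sites of Acot2 and Acot1 are shown because Acot1 had the largest fold change of the enzyme genes among the 35 and Acot2 is its close copy. Each holds the 250 bases before the start site from the RefSeq promoter set of GRCm38.p6, on the plus strand. Capitals mark the GC box GGGCGG, the CCAAT box CCAAT and the single site AGGTCA, on either strand. Acot2 spans chr12:83987611-83987860, and Acot1 spans chr12:84009252-84009501.
Acot2: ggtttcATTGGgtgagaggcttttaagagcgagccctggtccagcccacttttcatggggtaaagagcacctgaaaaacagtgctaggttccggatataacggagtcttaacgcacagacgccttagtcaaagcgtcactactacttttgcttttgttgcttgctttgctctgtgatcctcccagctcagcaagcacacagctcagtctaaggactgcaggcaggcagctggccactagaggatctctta
Acot1: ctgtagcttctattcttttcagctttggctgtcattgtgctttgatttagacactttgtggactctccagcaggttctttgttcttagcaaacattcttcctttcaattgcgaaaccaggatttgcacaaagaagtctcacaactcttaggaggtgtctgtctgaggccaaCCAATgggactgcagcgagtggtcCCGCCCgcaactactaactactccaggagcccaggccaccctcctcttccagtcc
The Acot1 stretch holds 1 GC box and 1 CCAAT box, and the Acot2 stretch 1 CCAAT box.

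The 3 genes of the carnitine shuttle had groups that did not overlap as deposited, against 4.92% of all genes wholly higher. Of the 3, 0 passed adjustment. An unadjusted p under 0.05 was found for 2 of the 3, against 2.42% of all genes called higher. After TPM scaling it was found for 1 of the 3, against 0.704%. Cpt1a, the outer-membrane palmitoyltransferase that controls entry of long chains, had 58, 61.2 and 60.7 FPKM across the control libraries, compared with 79.6, 64.3 and 64.9 after maternal DSS. Maternal DSS 1 stood above the other two, which exceeded the highest control by a little (log2 fold change 0.20 ± 0.10 SE, limma adjusted p = 0.62). Slc25a20, the carrier that exchanges acylcarnitine for carnitine across the inner membrane, had 66.7, 59.8 and 78.2 FPKM across the control libraries, compared with 78.6, 102 and 98.7 after maternal DSS. Here maternal DSS 1 was the low library of its group and barely above control 3 (log2 fold change 0.44, SE 0.13, adjusted p = 0.62). Cpt2, which returns the chain to coenzyme A in the matrix, had 29.3, 31.6 and 31.7 FPKM against 35.3, 33.6 and 35.9, again without overlap (log2 fold change 0.17, SE 0.07, adjusted p = 0.62). As deposited, the 3 genes averaged 0.27, 0.27 and 0.29 above the control mean on the log2 scale in maternal DSS 1, 2 and 3. In controls this average lay between -0.05 and 0.09.

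The stretch before Slc25a20 is shown as that of the shuttle gene with the largest fold change. It spans chr9:108661886-108662135 on the plus strand of GRCm38.p6 and holds 3 GC boxes, in capitals.
Slc25a20: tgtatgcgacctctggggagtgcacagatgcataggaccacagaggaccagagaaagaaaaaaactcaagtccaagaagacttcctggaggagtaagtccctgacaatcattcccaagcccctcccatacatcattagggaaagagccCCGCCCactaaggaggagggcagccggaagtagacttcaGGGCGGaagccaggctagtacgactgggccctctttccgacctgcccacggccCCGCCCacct
No single site AGGTCA lies in it.

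The acyl-CoA dehydrogenases catalyse the first oxidation, each for its own chain lengths. Acadl, the long-chain form, had 60.1, 63.9 and 58.1 FPKM across the control libraries, compared with 68.4, 69.2 and 71.3 after maternal DSS. It was the 1 gene of the 4 whose groups did not overlap, against 4.92% of all genes wholly higher. Its log2 fold change was 0.20 ± 0.07 SE (limma adjusted p = 0.62). Acadvl, Acadm and Acads, for very long, medium and short chains, had log2 fold changes of 0.06, 0.09 and 0.12. Each of these 3 was above its highest control in maternal DSS 1, but Acadvl in maternal DSS 2 (51.7 FPKM) lay below its lowest control (52.7). After TPM scaling Acadvl and Acadm had values of -0.05 and -0.02.

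Hadha and Hadhb encode the subunits of the trifunctional protein, which carries out hydration, the second oxidation and thiolysis of long chains. Hadha had 101, 105 and 95.8 FPKM across the control libraries, compared with 110, 106 and 114 after maternal DSS, without overlap. Hadhb had 92, 86.8 and 78.9 against 92.6, 88.4 and 99.5, with maternal DSS 2 below control 1. Their log2 fold changes were 0.13 (SE 0.07) and 0.12 (SE 0.09), and the adjusted p-values in limma were 0.62 and 0.66. Hadhb shares 62.4% of its 50-base windows with other annotated genes, most with Gm13910, so its value is uncertain. The genes stand head to head on chromosome 5, Hadha from 30119423 to 30154980 on the minus strand and Hadhb from 30155253 to 30184593 on the plus strand.

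The 272 bases between both start sites are shown because they are the start region of both subunits. They are written on the plus strand, chr5:30154981-30155252 of GRCm38.p6, so the Hadha start lies just before the first base and the Hadhb start just after the last.
Hadha-Hadhb: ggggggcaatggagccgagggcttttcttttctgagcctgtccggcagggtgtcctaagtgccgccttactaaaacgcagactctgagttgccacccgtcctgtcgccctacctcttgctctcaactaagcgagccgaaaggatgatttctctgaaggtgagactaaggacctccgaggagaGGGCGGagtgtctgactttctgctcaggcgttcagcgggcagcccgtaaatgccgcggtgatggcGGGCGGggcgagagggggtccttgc
It holds 2 GC boxes, in capitals, and no CCAAT box or AGGTCA single site.

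The single enzymes of the later mitochondrial steps differed mainly at the thiolase. Acaa2, the mitochondrial 3-ketoacyl-CoA thiolase, had 63.4, 65.8 and 62.8 FPKM across the control libraries, compared with 82, 74.7 and 87.6 after maternal DSS. The lowest maternal DSS library was well above the highest control (means 64 ± 1.58 and 81.4 ± 6.49 FPKM, SD of 3 libraries). The log2 fold change was 0.34 with SE 0.08 and limma adjusted p = 0.62. Echs1, the short-chain hydratase, and Hadh, the short-chain hydroxyacyl dehydrogenase, had log2 fold changes of 0.08 and 0.07 with overlapping groups, and -0.03 and -0.04 after TPM scaling.

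The auxiliary enzymes for unsaturated chains included a pair of isomerases. Eci1, the mitochondrial form, had 25.9, 26.9 and 28.2 FPKM against 30.4, 31 and 33.5. Eci2, found in both mitochondria and peroxisomes, had 23.7, 24.2 and 26.8 FPKM against 31.3, 26.9 and 29.6. Eci1 was separated clearly, and Eci2 by a hair in maternal DSS 2. Both had a log2 fold change of 0.22 (with SE 0.07 and 0.09, adjusted p = 0.62 in limma). Decr1, the mitochondrial dienoyl-CoA reductase, had 21.6, 20.8 and 22.4 FPKM against 22.1, 24.9 and 28.6, so maternal DSS 1 lay inside the control range.

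Electrons from the first oxidation pass to the respiratory chain through the electron transfer flavoprotein. Neither of its subunit genes passed adjustment. Their groups did not overlap as deposited and did after TPM scaling. Etfa had 81.5, 84.5 and 79.8 FPKM across the control libraries, compared with 94.2, 85.9 and 96.7 after maternal DSS, and Etfb had 86.3, 87 and 92.6 against 101, 96.7 and 109. The log2 fold changes were 0.17 (SE 0.08) and 0.20 (SE 0.08), both with an adjusted p = 0.62 in limma. Of the Etfb windows 67.3% also occur in another annotated gene, Gm45233, so its value is uncertain. Etfdh, which hands the electrons to ubiquinone, had a log2 fold change of 0.06 and overlapping groups.

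**Figure D2:**
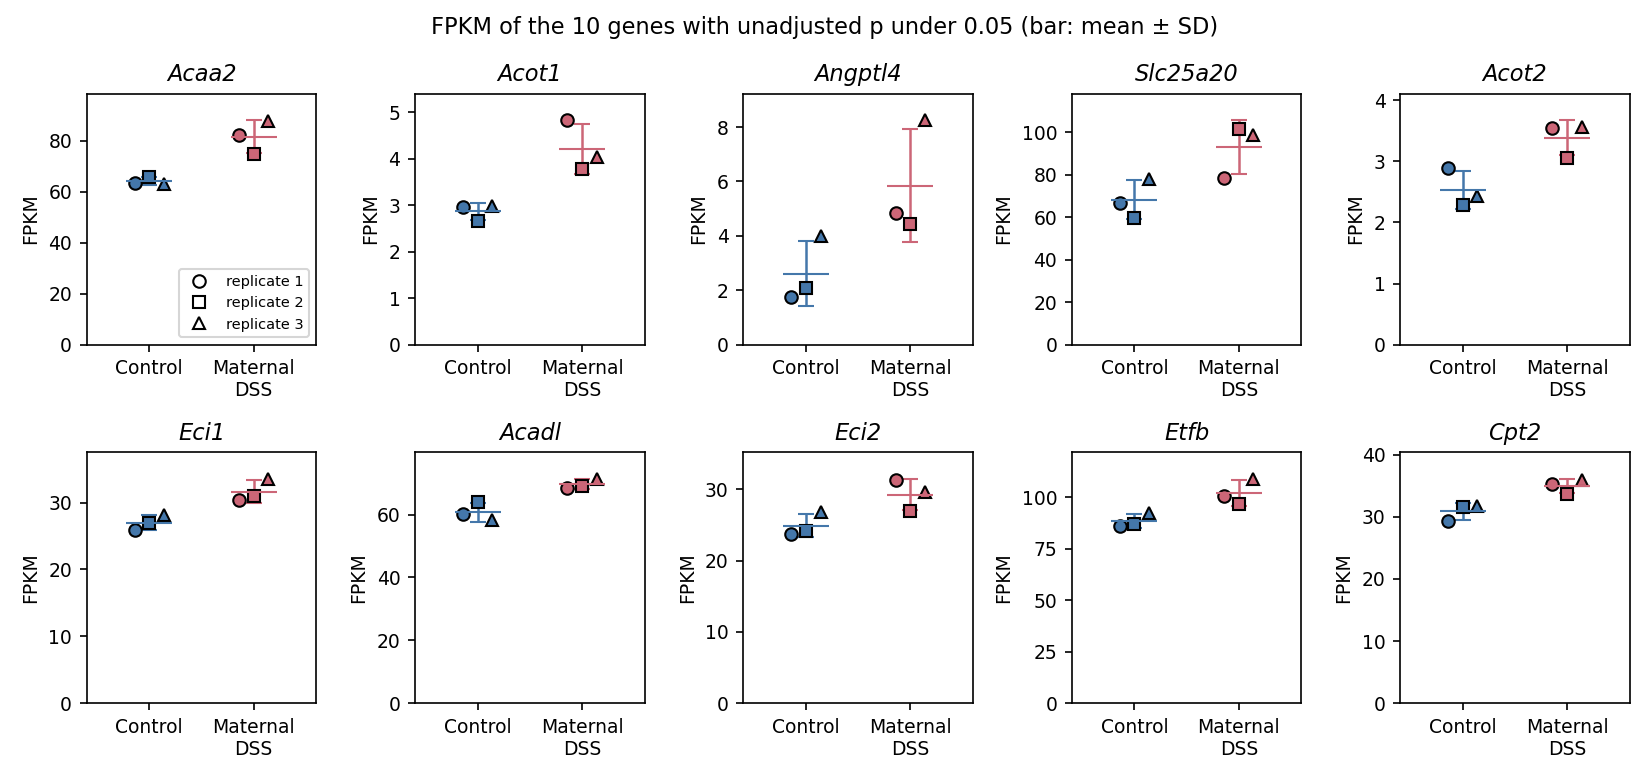
FPKM per library for the 10 genes with an unadjusted p under 0.05, ordered by p, with control libraries in blue and maternal DSS libraries in red, symbols for replicate numbers and bars for mean ± SD (n = 3). In all 10 the 3 maternal DSS points lie above the 3 control points, closest in Slc25a20 (78.6 against 78.2) and Eci2 (26.9 against 26.8).

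The peroxisomal steps showed small differences. Ehhadh, the bifunctional enzyme, had 17.9, 17.5 and 16.7 FPKM across the control libraries, compared with 17.8, 16.8 and 18.4 after maternal DSS. Decr2, the peroxisomal dienoyl-CoA reductase, had 16.6, 15.8 and 16.8 against 17.2, 16.1 and 16.8. Both had a log2 fold change of 0.02 (with SE 0.07) with adjusted p = 0.92 in limma. Acaa1a, a peroxisomal thiolase, had 31.6, 33.1 and 32.7 FPKM against 36.4, 35.2 and 36.6 (log2 fold change 0.15, SE 0.06, limma adjusted p = 0.62). It was the 1 of the 4 whose groups did not overlap, against 4.92% of all genes wholly higher. Acaa1b, its close copy, had 10.6, 8.44 and 10.1 against 11.4, 8.06 and 11, with its lowest value of all in maternal DSS 2 (log2 fold change 0.05, SE 0.14, adjusted p = 0.91). The thiolase reading frames were 96.5% identical over 1275 bases, and 34% of the Acaa1a windows and 35.5% of the Acaa1b windows are shared, so these values are uncertain too.

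Set side by side, the 18 mitochondrial steps had a median log2 fold change of 0.17 (range 0.06 to 0.44) and the 4 peroxisomal steps one of 0.03 (range 0.02 to 0.15). All 18 and all 4 were positive as deposited. After TPM scaling 13 of 18 and 1 of 4 were positive, against 19.9% of all genes. Relative to the median of all genes, the medians were 0.19 and 0.06 on that scale, against 0.21 and 0.07 as deposited. As deposited, the mean log2 level of the mitochondrial steps stood 0.19, 0.12 and 0.23 above the control mean in maternal DSS 1, 2 and 3. In controls it lay between -0.01 and 0.01. That of the peroxisomal steps stood at 0.12, -0.05 and 0.11, and between -0.05 and 0.04 in controls. Maternal DSS 2 was thus the lowest of its group in both as deposited, and level with the lowest control for peroxisomes. These means were not scaled to equal library totals, which were higher in maternal DSS 2 and 3 than in any control. They therefore also carry the totals. As a share of the library total, the summed FPKM of the mitochondrial steps stood above all controls in maternal DSS 1 only. The log2 means themselves were not set on a common total. The difference between the compartments was 0.07, 0.17 and 0.12 in maternal DSS libraries and -0.03, 0.06 and -0.03 in controls. No test was run on this difference, and 4 genes give the peroxisomal side little weight.

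Adding further enzymes of each compartment gave 26 mitochondrial and 20 peroxisomal genes, and a compartment difference of 0.05, 0.11 and 0.12 in maternal DSS 1, 2 and 3 against -0.02, 0.06 and -0.05 in controls. Maternal DSS 1 then lay within the control range. Of the 8 further mitochondrial genes tested, 5 had positive and 3 negative fold changes (3 positive after TPM scaling), and 0 passed adjustment. Acot9, a mitochondrial thioesterase gene, had 14.3, 14.1 and 13 FPKM against 15.2, 16.5 and 17.8. Hsd17b10, a short-chain dehydrogenase gene, and Acot13, a thioesterase gene, had the highest levels of these (log2 fold changes 0.19 and 0.09). Acadsb, for short branched chains, had -0.21 with an unadjusted p of 0.079.

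Of the 16 further peroxisomal genes tested 12 had positive and 4 negative fold changes (6 positive after TPM scaling), and 0 passed adjustment. Abcd3, which imports branched and long acyl-CoA, had 60, 60.5 and 57.3 FPKM across the control libraries, compared with 75.6, 65.7 and 63.9 after maternal DSS. Its groups did not overlap (log2 fold change 0.20 ± 0.08 SE, limma adjusted p = 0.62). The lipid carrier gene Scp2 had a log2 fold change of 0.11 and overlapping groups. Abcd2 and the mitochondrial Cpt1b did not reach the FPKM filter of 1 in 3 libraries.

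**Figure D3:**
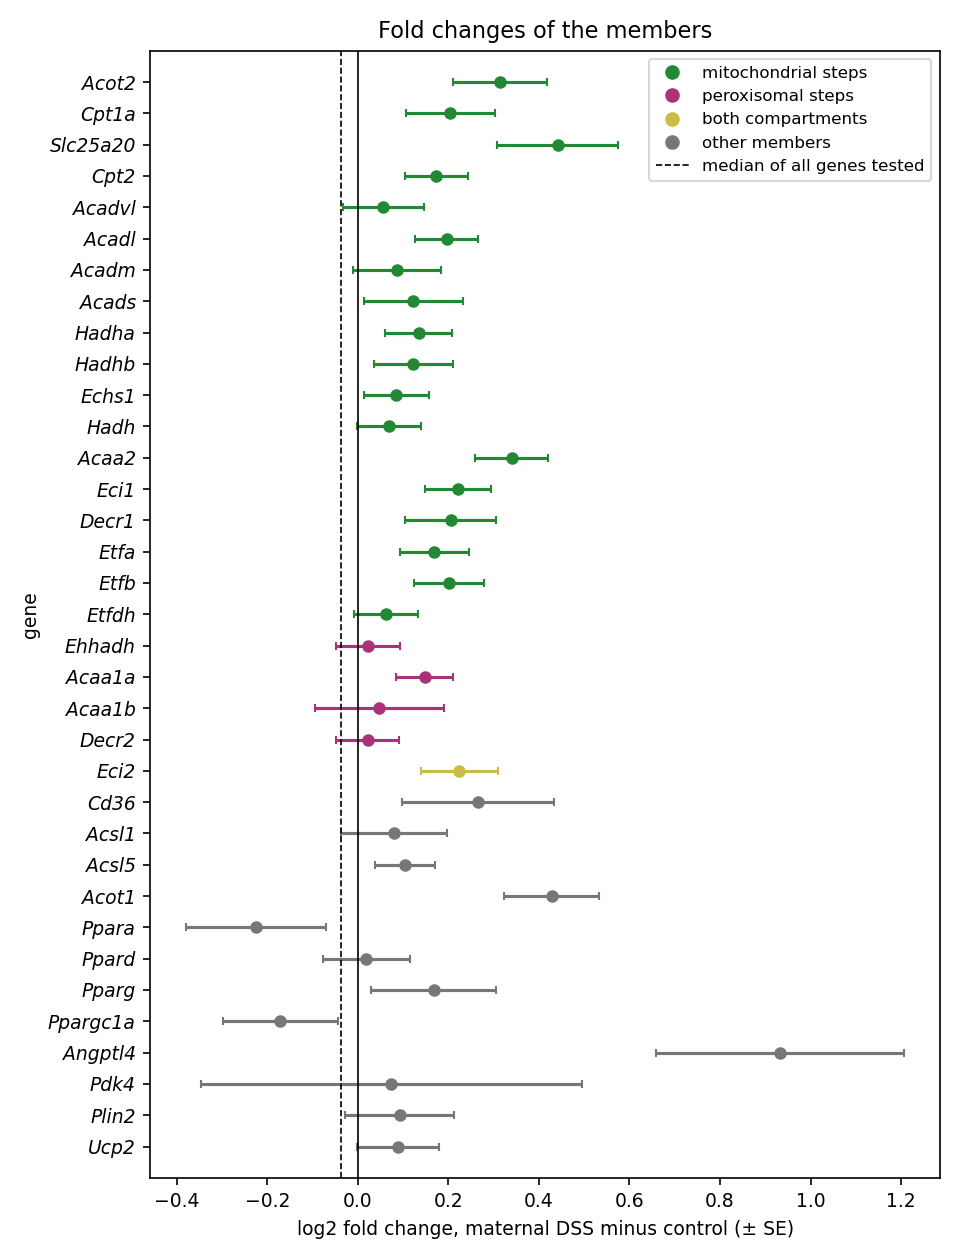
Log2 fold change of each of the 35 genes, maternal DSS minus control, with its standard error from limma, coloured by compartment, and the median of all tested genes as a dashed line at -0.04. The mitochondrial genes run from 0.06 to 0.44, the 4 peroxisomal genes from 0.02 to 0.15, and Angptl4 stands apart at 0.93.

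The receptors themselves showed no common direction. Ppara, the main PPAR of liver and of fatty acid oxidation, had 6.06, 5.72 and 5.53 FPKM across the control libraries, compared with 6.43, 4.27 and 3.96 after maternal DSS. It was highest in maternal DSS 1 and lowest in the other two of that group (log2 fold change -0.22 ± 0.15 SE, limma adjusted p = 0.65). Pparg, the regulator of fat cells that colon epithelium also expresses, had 41.7, 38.4 and 31.6 FPKM against 48.1, 35.7 and 42.2. Ppard, the broadly expressed member, had 35.3, 35.9 and 42.2 against 39.1, 40.5 and 35.2. Both overlapped between groups, with log2 fold changes of 0.17 (SE 0.14) and 0.02 (SE 0.10). Ppargc1a, a coactivator that drives mitochondrial genes, had 6.8, 6.42 and 5.87 FPKM against 6.76, 5.28 and 4.72, the same order of libraries as Ppara in the maternal DSS group. Without maternal DSS 1, Ppara and Ppargc1a had log2 fold changes of -0.40 and -0.30, both with an unadjusted p under 0.05 and adjusted p of 0.14 and 0.16 in limma. In that fit 1048 of all genes (7.83%) were called higher and 2301 lower without adjustment. With the transcript length trend of each library removed, Ppara and Ppargc1a had -0.17 and -0.03 over all 6 libraries.

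Of 13 tested partners and coregulators of the receptors 10 had negative and 3 positive fold changes (0 positive after TPM scaling, 5 after median-ratio scaling), and 0 passed adjustment. Positive fold changes made up 40.3% of all genes, 19.9% after TPM scaling and 52.2% after median-ratio scaling. Pprc1, a coactivator related to Ppargc1a, had 5.63, 5.74 and 4.6 FPKM across the control libraries, compared with 3.87, 3.57 and 3.04 after maternal DSS, without overlap (log2 fold change -0.49 ± 0.11 SE, limma adjusted p = 0.62). Esrra, an orphan receptor that works with these coactivators, and the heterodimer partner Rxra were the most abundant, each with a log2 fold change of -0.02. The median of the 13 was -0.15, and -0.00 with the transcript length trend removed, with 7 negative and 6 positive.

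Of the 4 PPAR targets among the 35 genes, 1 had groups that did not overlap, against 4.92% of all genes wholly higher. Angptl4, a secreted inhibitor of lipoprotein lipase, had 1.76, 2.08 and 3.98 FPKM across the control libraries, compared with 4.85, 4.45 and 8.24 after maternal DSS. The groups did not overlap, but control 3 lay close to maternal DSS 2 and the spread was wide (means 2.61 ± 1.2 and 5.85 ± 2.09 FPKM, SD of 3 libraries). The log2 fold change was 0.93 with SE 0.27 and limma adjusted p = 0.62. Pdk4, a kinase that shuts off pyruvate oxidation when fat is burned, had 11.1, 12.7 and 5 FPKM against 16.5, 5.36 and 9.4. Maternal DSS 1 was its highest library, while control 3 and maternal DSS 2 were both low (log2 fold change 0.07, SE 0.42, adjusted p = 0.95). Plin2, a coat protein of lipid droplets, lay between 66.7 and 85.6 FPKM in controls and between 71.7 and 90.2 in maternal DSS libraries. Ucp2 lay between 225 and 235 against 223 to 260. Both had a log2 fold change of 0.09, and -0.02 after TPM scaling.

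Among 13 further PPAR targets and lipid genes 12 had positive fold changes (8 after TPM scaling) and 0 passed adjustment. Ech1, a dienoyl-CoA isomerase gene, had 119, 113 and 120 FPKM across the control libraries, compared with 128, 137 and 155 after maternal DSS, without overlap (log2 fold change 0.25, SE 0.09). Lpin1, a phosphatidate phosphatase and coactivator gene, had 1.67, 2.08 and 1.95 against 2.92, 2.08 and 2.68, with an unadjusted p of 0.046. Of the most abundant, the fatty acid binding protein gene Fabp2 had a log2 fold change of 0.42 (with SE 0.19) with control 3 low at 242 FPKM, and Txnip, a thioredoxin-binding regulator, had 0.15. The ketone body genes showed 3 positive and 2 negative of 5 (2 positive after TPM scaling, 4 after median-ratio scaling), and 0 passed adjustment. Oxct1, which uses ketone bodies, had a log2 fold change of -0.09.

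Genes of the opposite pathway, fatty acid synthesis, were lower in 7 of 9 cases (8 after TPM scaling), and 0 passed adjustment. Of all genes 40.3% had a positive fold change, and 19.9% after TPM scaling. An unadjusted p under 0.05 was found for 4 of the 9, all lower (Scd2, Srebf1, Acly and Fasn), against 5.41% of all genes called lower. After median-ratio scaling 2 were called lower, and with the length trend removed 2 were called lower and 1 higher. Srebf1, the transcription factor of fat synthesis, had 16.1, 17.7 and 15 FPKM across the control libraries, compared with 13, 12.6 and 11.7 after maternal DSS. Acly, which makes cytosolic acetyl-CoA, had 69.8, 78.1 and 72.7 against 57.6, 67.5 and 53.8. The groups did not overlap for either, with log2 fold changes of -0.36 (SE 0.09) and -0.30 (SE 0.10), an adjusted p = 0.62 for both in limma. Fasn, the fatty acid synthase, had 17.9, 23 and 19 against 18.2, 15.4 and 10.8, with maternal DSS 1 inside the control range, and the desaturase gene Scd2 had a log2 fold change of -0.86 (with SE 0.14, adjusted p = 0.49).

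**Figure D4:**
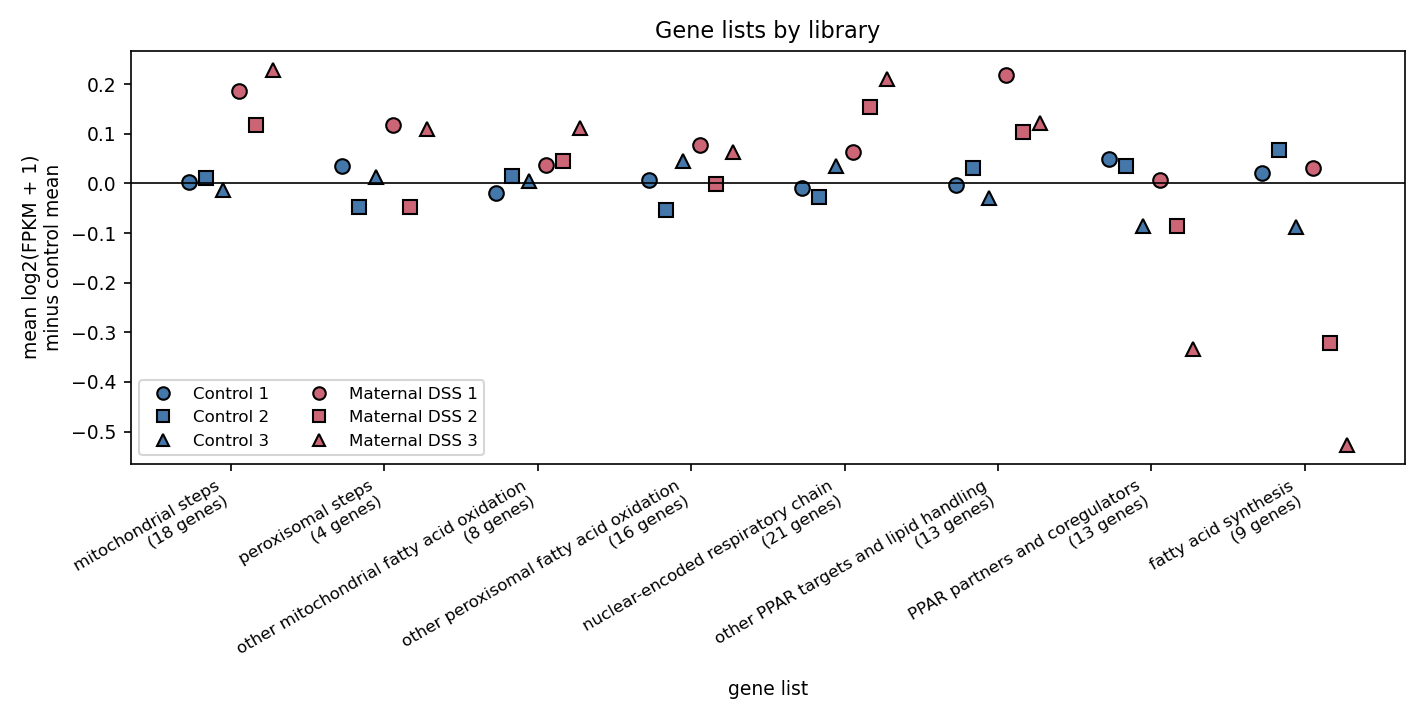
Mean log2(FPKM + 1) minus the control mean for 8 gene lists in each library, from values as deposited. Library totals were not made equal. Control libraries are in blue, maternal DSS libraries in red, and symbols show replicate numbers. For the 18 mitochondrial steps the maternal DSS points lie at 0.12 to 0.23 and the controls between -0.01 and 0.01, while fatty acid synthesis lies at -0.53 in maternal DSS 3 and at 0.03 in maternal DSS 1.

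The nuclear-encoded respiratory chain, which receives the electrons of the pathway, had 20 of 21 genes with a positive fold change (14 after TPM scaling) and a median of 0.13, and 0 passed adjustment. As deposited, it ordered the libraries differently from the mitochondrial steps of fat oxidation. Its mean stood at 0.06, 0.15 and 0.21 above the control mean in maternal DSS 1, 2 and 3, against 0.04 in control 3. Maternal DSS 1 was thus lowest of its group there, and maternal DSS 2 for fat oxidation, in these values. Library totals rose from maternal DSS 1 to 2 to 3 and were not made equal for these means. Both orders therefore also carry the totals and may not hold on another scale. No test was run on this difference in order. Ndufs3, Ndufa9 and Ndufv1, subunits of complex I, had unadjusted p-values under 0.05 (log2 fold changes 0.19, 0.26 and 0.18), against 2.42% of all genes called higher. This count of 3 was 0 after TPM scaling and 1 with the length trend removed. Cox4i1 and Cox6c, subunits of the terminal oxidase, were the most abundant (0.24 and 0.31).

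Markers of the tissue were read beside these values. Colon epithelium was present in every library, with all 9 marker genes tested and Car1, a colonocyte carbonic anhydrase, at 4528 to 5632 FPKM in controls and 5450.3 to 7277 in maternal DSS libraries. Summed small intestine and Paneth cell markers (15 genes) were 114 to 141 FPKM in controls and 121, 280 and 306 in maternal DSS 1, 2 and 3. All 13 tested had positive fold changes (10 after TPM scaling), and Fabp6, an ileal bile acid binding protein gene, had 14.2, 1.84 and 7.11 FPKM against 2.08, 72.7 and 52.4, while Lct, the lactase gene, stayed between 0.0125 and 0.073. As deposited, the mitochondrial steps of fat oxidation stood at 0.19, 0.12 and 0.23 above the control mean in maternal DSS 1, 2 and 3. Library totals were not made equal for these means. The part of small-intestinal transcripts in these means was not tested. Slc25a20, like the markers, was lower in maternal DSS 1 than in the other two, and the part of small-intestinal transcripts in its value was not tested.

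Adipocyte markers (9 genes) summed to 98 to 199 FPKM in controls, with control 3 highest, and to 126 to 191 in maternal DSS libraries. Lep was under an FPKM of 1 in all libraries, and 0 of the 8 tested had an unadjusted p under 0.05. Cd36, Angptl4 and Plin2, which fat cells also express, were all highest among controls in control 3. Pparg, the regulator of fat cells, was lowest among controls there (31.6 FPKM). Endothelial markers (8 genes) summed to 66.4 to 80.7 FPKM in controls and 65.7 to 76.9 in maternal DSS libraries, and macrophage markers (8 genes) to 78.6 to 131 and 86.2 to 158. Smooth muscle markers (7 genes) summed to 2915 to 3084 and 2427 to 3126, with all 7 fold changes negative. The part of these cells in the values was not tested.

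Angptl4 and Pdk4 are also targets of the glucocorticoid receptor. Other targets of that receptor had 6 positive and 3 negative of 9 (5 positive after TPM scaling), and 0 passed adjustment. Fkbp5, Zbtb16, Mt1 and Mt2 had an unadjusted p under 0.05, against 2.42% of all genes called higher. All 4 were without overlap, against 4.92% of all genes wholly higher. Klf9, Tsc22d3, Per1, Dusp1 and Sgk1 overlapped between groups, with log2 fold changes of 0.15, 0.09, -0.01, -0.07 and -0.10. The list was chosen with earlier results of these data known, so these shares are description. The mean of the list was 0.52, 0.22 and 0.56 above the control mean in maternal DSS 1, 2 and 3, and 0.23 in control 3. Maternal DSS 2 was the low library of its group, as it was for the mitochondrial steps, in values as deposited. Library totals were not made equal for these means. Control 3 was the highest control for this list and the lowest for the mitochondrial steps (-0.01). The part of the glucocorticoid response in the values was not tested. The metallothionein genes Mt1 and Mt2 were the most abundant of the list (log2 fold changes 0.70 and 0.94).

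Promoters were compared for the letters of the PPAR response element, a direct repeat of the single site with 1 base between. RefSeq windows of 300 bases, from 250 before to 50 after the start site, were matched for 32 of the 35 genes. Acaa2, Angptl4 and Decr1 had none. The full element is AGGTCA repeated in the same direction with any 1 base between, on either strand. It occurred in 0 of the 32 and in 0.0481% of all 27025 genes with a window. A looser form, with any base in place of the T of both copies, occurred in 0 and 0.451%. With shares this low, 0 of 32 does not set these genes apart from others. The single site AGGTCA, which the full element contains, occurred in 7 of the 32 (21.9%), against 18.1% of all genes and 15.2% of the genes tested for expression. These were Acadm, Acadvl, Cpt1a, Echs1, Plin2, Cd36 and Pparg. The GC box GGGCGG occurred in 24 of the 32 (75%), against 38.2% of all genes and 67.3% of the genes tested for expression. CCAAT occurred in 18 (56.2%), against 41.1% and 43.1%. Each match is a run of letters in this window and says nothing of binding.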

How the data were processed

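Colon RNA was extracted with a kit for fatty tissue and sequenced from a stranded mRNA kit, per the labels' protocols. The deposited values are FPKM per gene and library, made by the authors. Tools listed in the submitters' processing notes are HISAT2 2.1.0 and StringTie 2.1.3b, beside Trimmomatic 0.38, FastQC 0.11.7, DESeq2 and the build mm10, and their order and the annotation are not given in the sources used here. Depth per library is also not given there, and no count test was run. Groups of 3 control and 3 maternal DSS libraries were compared on log2(FPKM + 1) by limma 3.58.1 (R 4.3.3, mean-variance trend), keeping genes that reached an FPKM of 1 in 3 or more libraries, and Benjamini-Hochberg adjustment over all 13594 of them at 0.05. The procedure was tested on simulated data. The labels do not say whether replicate numbers pair the libraries, and the main fit used no pairing.

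The members and gene lists were chosen with earlier results of these data known. All members are described; of each further list, genes with an unadjusted p under 0.05 and the 2 with the highest mean FPKM are named, and a few other genes were named after their values were seen. Some genes that this rule names are not reported here. Alternatives changed the pseudocount (0.1), the filter (none, or an FPKM of 5), the scaling (median ratio, TPM), a trend on transcript length (GENCODE lengths for 97.1% of tested genes), library weights, the mean-variance trend, a replicate block, and each library left out. Start regions come from RefSeq on GRCm38.p6, with 32 of 35 genes matched, and shared windows from GENCODE transcripts.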

Additional observations from a re-analysis of the deposited data

How the results depend on the processing

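The count of 10 of the 35 genes with an unadjusted p under 0.05 was 4 after TPM scaling. Of all genes 0.704% were then called higher. With library weights it was 20, with 17 higher and 3 lower, against 2136 of all 13594 genes higher and 4648 lower. It was 4 to 11 with each library left out. Positive fold changes numbered 33, and 19 after TPM scaling, against 40.3% and 19.9% of all genes. Over all genes 0 passed adjustment, against 4933 with library weights, which were 5.47 for maternal DSS 2 and 0.249 for maternal DSS 1, and 0 to 10 with each library left out (10 without maternal DSS 1). With the weights 13 of the 35 genes passed adjustment, beside the 4933 of all 13594 genes. Of the 13, 10 were higher, while Pdk4, Ppara and Ppargc1a were lower. The 1064 genes with an unadjusted p under 0.05 became 677 with a filter at an FPKM of 5, 6784 with library weights, 1678 with the replicate block, and 394 to 3349 with each library left out. The block left 9 of the 35 genes. Same-numbered libraries had correlations of 0.276, -0.384 and 0.404, and not every library correlated best with its own number.

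The mitochondrial median of 0.17 was 0.061 after TPM scaling and 0.14 to 0.20 with each library left out. The peroxisomal median of 0.03 was -0.069 after TPM scaling, -0.025 with library weights and 0.0055 to 0.11 with each library left out. After TPM scaling, which sets the library totals equal, the sign turned for Acsl1 (-0.023), Acsl5 (-0.0053), Acadvl (-0.054), Acadm (-0.023), Echs1 (-0.026), Hadh (-0.042), Etfdh (-0.047), Ehhadh (-0.084), Acaa1b (-0.053), Decr2 (-0.084), Ppard (-0.090), Pdk4 (-0.025), Plin2 (-0.018) and Ucp2 (-0.022). With library weights the sign turned for Acadvl (-0.089), Acadm (-0.096), Acads (-0.022), Etfdh (-0.013), Ehhadh (-0.047), Acaa1b (-0.15), Decr2 (-0.0037), Pparg (-0.085), Pdk4 (-0.80) and Ucp2 (-0.024). The cause was not tested. With each library left out in turn, the log2 fold change turned negative in at least 1 fit for Acsl1 (-0.015 to 0.18, negative without control 1), Acadvl (-0.0079 to 0.13, negative without maternal DSS 1), Ehhadh (-0.0064 to 0.054, negative without control 3 or maternal DSS 3), Acaa1b (-0.041 to 0.19, negative without control 2 or maternal DSS 1 or maternal DSS 3), Decr2 (-0.0050 to 0.046, negative without control 2), Ppard (-0.027 to 0.098, negative without control 1 or control 2 or maternal DSS 2) and Pdk4 (-0.29 to 0.44, negative without control 3 or maternal DSS 1). Another 12 of the 35 kept their sign but moved by over 1.5 times in at least 1 of these fits, among them Cd36 (0.077 to 0.43), Cpt1a (0.11 to 0.26), Acads (0.034 to 0.19), Pparg (0.056 to 0.28), Plin2 (0.0042 to 0.18), Ppara (-0.40 to -0.11) and Ppargc1a (-0.30 to -0.076), and 16 stayed within 1.5 times.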
